A study of Mus musculus with 4 samples.

Results

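The genes described here encode the acidification machinery and part of the degradative content of the lysosome, measured in single microglia of mice after whole-brain irradiation. They comprise 33 named genes of the 27998 in the files: 15 subunits and accessory proteins of the vacuolar proton pump (V-ATPase), 6 lysosomal membrane proteins, 7 acid hydrolases, 3 luminal proteins and 2 transcription factors. Cathepsins were left out. The list was set by name and not by measured values of the genes, although it was drawn up with earlier results of these data known.

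Lysosomes break down what microglia engulf and what autophagy delivers. The V-ATPase has a cytosolic V1 sector that hydrolyses ATP and a membrane V0 sector that carries protons into the lumen, and the pump is regulated by the docking of V1 onto V0. The hydrolases need the acid lumen that the pump makes. TFEB and TFE3 are related transcription factors that bind a short palindromic E-box element, the CLEAR element, in promoters of many lysosomal genes. Their activity is set largely by phosphorylation and movement into the nucleus, with mTORC1 at the lysosome surface as a main kinase, so that their own mRNA level is a poor guide to it.

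The data are 4 droplet single-cell libraries (10x Genomics Chromium) of brain microglia from C57BL/6 mice, each pooled from 4 animals. The groups were irradiated (IR) at 6 h, sham (SH) at 6 h, IR at 1 week and SH at 1 week. IR mice received a single whole-brain dose of 8 Gy at postnatal day 21 and SH mice none. Mice of the 1-week groups were thus older at sampling than those of the 6 h groups. Between the times, age cannot be told apart from library. The source label says brain and the series design names the hippocampus, so the region sampled is uncertain. The isolation of the cells and the sex of the mice are not stated. With 1 library per group there was no replicate check and no test: folds carry exact 95% intervals that cover counting error only, and mouse, batch and treatment cannot be told apart.

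The files held 8486 barcodes, of which 8324 cells were kept, 1978 in IR and 2646 in SH at 6 h, and 2137 in IR and 1563 in SH at 1 week. Their summed counts of UMIs (molecular tags, each counted as 1 captured transcript) lay between 5585259 and 9713033 per library, with a median of 3430 to 3585 per cell. Pairs of libraries shared 4 to 12 barcodes. All 9 microglia markers were detected in every library, and their summed level was 45229 CPM (UMIs per 1000000 UMIs of the library) in IR and 52462 CPM in SH at 6 h, and 51942 CPM in IR and 48628 CPM in SH at 1 week. P2ry12, a purinergic receptor gene and one of these markers, stood at 2884 CPM in IR and 6566 CPM in SH at 6 h. At 1 week P2ry12 had 6954 CPM in IR and 5566 CPM in SH. The markers differed in direction at 6 h. C1qa was higher in IR (11545 CPM, SH 10696 CPM), as was C1qb (10711 CPM, SH 10389 CPM). Tmem119, Csf1r, Cx3cr1, C1qc, Fcrls and Siglech were lower in IR, like P2ry12. Astrocyte markers, 7 genes, summed to 258 CPM in IR, with all detected, and 149 CPM in SH at 6 h, with Aqp4 and Aldh1l1 at 0. Oligodendrocyte precursor markers, 4 genes, summed to 7.0 CPM in IR and 0.41 CPM in SH at 6 h, where SH had Cspg4 and Olig2 at 0. Monocyte markers, 7 genes with Ly6c2 at 0 in every library, summed to 37.6 CPM in IR and 33.7 CPM in SH at 6 h, and of 6 neutrophil markers S100a8, S100a9, Ly6g and Retnlg were at 0 throughout.

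Promoter sequences of members that hold the CLEAR core are shown here because TFEB and TFE3 are among the genes described. RefSeq promoter windows of GRCm38.p6 (mm10), from 250 bases before to 50 bases after each annotated start, were matched for 28 of the 33 genes. The letters TCACGTGA, a palindrome that reads the same on either strand, were found in the windows of 5 genes, written here 5′ to 3′ on the strand of the gene with the motif in capitals.
Gla (chrX:134601182-134601244, minus strand): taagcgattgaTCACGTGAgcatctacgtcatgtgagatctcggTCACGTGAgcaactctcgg
Atp6v1a (chr16:44139373-44139402, minus strand): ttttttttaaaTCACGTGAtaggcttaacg
Mcoln1 (chr8:3500462-3500491, plus strand): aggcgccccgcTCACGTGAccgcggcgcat
Atp6v0d1 (chr8:105566050-105566079, minus strand): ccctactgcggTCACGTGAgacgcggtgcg
Atp6v0e (chr17:26676387-26676416, plus strand): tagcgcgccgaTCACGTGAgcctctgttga

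In Gla the motif occurred in 2 copies, the first starting 228 bases before the RefSeq start. In Atp6v1a it began 132 bases before the RefSeq start. The gene bounds given below are those of GENCODE, which can place starts differently. The sequences shown for Atp6v1a and Mcoln1 lie inside those bounds. Among all RefSeq promoters of this length, 0.974% held TCACGTGA, against 5 of the 34 windows of the members (14.7%), since some genes have several starts. The shorter core CACGTG, which lies inside the longer motif, was present in 8 of the 34 windows (23.5%), 1 of them that of Lamp1 with 4 copies, and in 7.15% of all promoters. Counted by gene it was found in 8 of 28 matched members (28.6%) and in 8.09% of all genes. These matches describe the sequence only.

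At 6 h after irradiation, 7 of the 33 genes were at least 1.5-fold higher in IR than in SH microglia and 0 were 1.5-fold lower. They were the V1 subunit genes Atp6v1a, Atp6v1c1 and Atp6v1d, the hydrolase genes Gla, Neu1 and Gusb, and the calcium channel gene Mcoln1. This is 21.2% of the members, beside 9.01% of 9933 measured genes higher and 9.31% lower by the same rule (a gene counted as measured from 50 UMIs over both libraries). The median log2 fold of the members was 0.23 (interval over members 0.09 to 0.46), beside -0.06 over all measured genes. Such intervals of list medians describe the spread over the listed genes, which are not replicates. With a lower limit, a log2 fold of 0.32 in either direction, 15 members were higher and 0 lower, where the whole table had 17.1% and 23.0%.

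**Figure D1:**
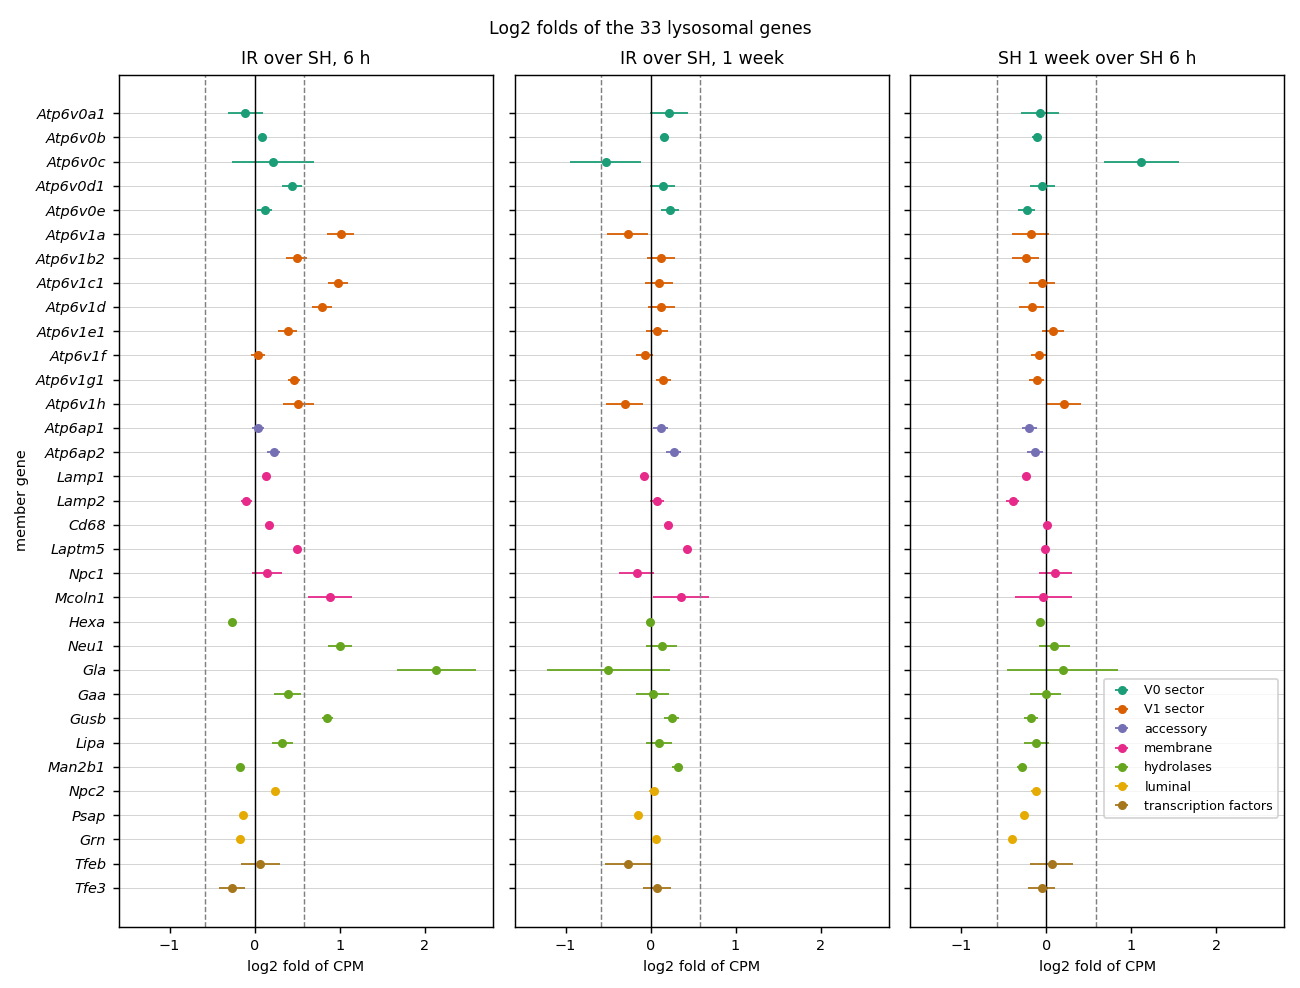
Log2 fold of CPM for each of the 33 genes (rows, coloured by functional group) in the 3 comparisons; points are the folds, bars their exact 95% counting intervals and dashed lines 1.5-fold. At 6 h the 7 genes right of the dashed line are Atp6v1a, Atp6v1c1, Atp6v1d, Mcoln1, Neu1, Gla and Gusb, whereas at 1 week no gene passes it.

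In the V1 sector all 8 genes were above 0 at 6 h, 3 of them past 1.5-fold. Its summed level was 1667 CPM (1638 to 1697) in IR and 1186 CPM (1164 to 1208) in SH at 6 h, and 1154 CPM (1130 to 1178) in IR and 1119 CPM (1091 to 1147) in SH at 1 week. The IR library at 6 h thus stood apart, while the other 3 lay between 1119 and 1186 CPM. The log2 fold of the sum was 0.49 (0.45 to 0.53) at 6 h and 0.04 (-0.0023 to 0.09) at 1 week.

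Atp6v1a encodes the A subunit that carries the catalytic sites for ATP (ENSMUSG00000052459, mm10 chromosome 16, 44085402 to 44139705). It was at 112 CPM in IR and 55.6 CPM in SH at 6 h, and at 40.6 CPM in IR and 48.9 CPM in SH at 1 week. Only the IR library at 6 h was high, at a log2 fold of 1.01 (0.85 to 1.17), and at 1 week the fold was -0.27 (-0.51 to -0.03). Atp6v1c1, whose C subunit bridges stator and membrane sector and is released when the pump comes apart, had 200 CPM in IR and 101 CPM in SH at 6 h, against 105 CPM in IR and 97.6 CPM in SH at 1 week. Its log2 fold at 6 h was 0.98 (0.87 to 1.10). Atp6v1d, the central rotor subunit, had 193 CPM in IR and 111 CPM in SH at 6 h, a log2 fold of 0.80 (0.68 to 0.91), and 108 CPM in IR and 98.5 CPM in SH at 1 week. For these genes too the 3 other libraries lay close together.

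The remaining V1 genes stayed under 1.5-fold. Atp6v1h, the regulatory subunit, was nearest to the limit from below, at 0.51 (0.33 to 0.69), and the nucleotide-binding B subunit gene Atp6v1b2 stood at 0.49 (0.37 to 0.62). The peripheral stalk genes Atp6v1g1 and Atp6v1e1 had log2 folds of 0.46 (0.39 to 0.53) and 0.39 (0.28 to 0.50). Atp6v1f, another rotor subunit, was close to SH at 0.04 (-0.04 to 0.12). The difference thus varied within the sector, over a range of 0.04 to 1.01.

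**Figure D2:**
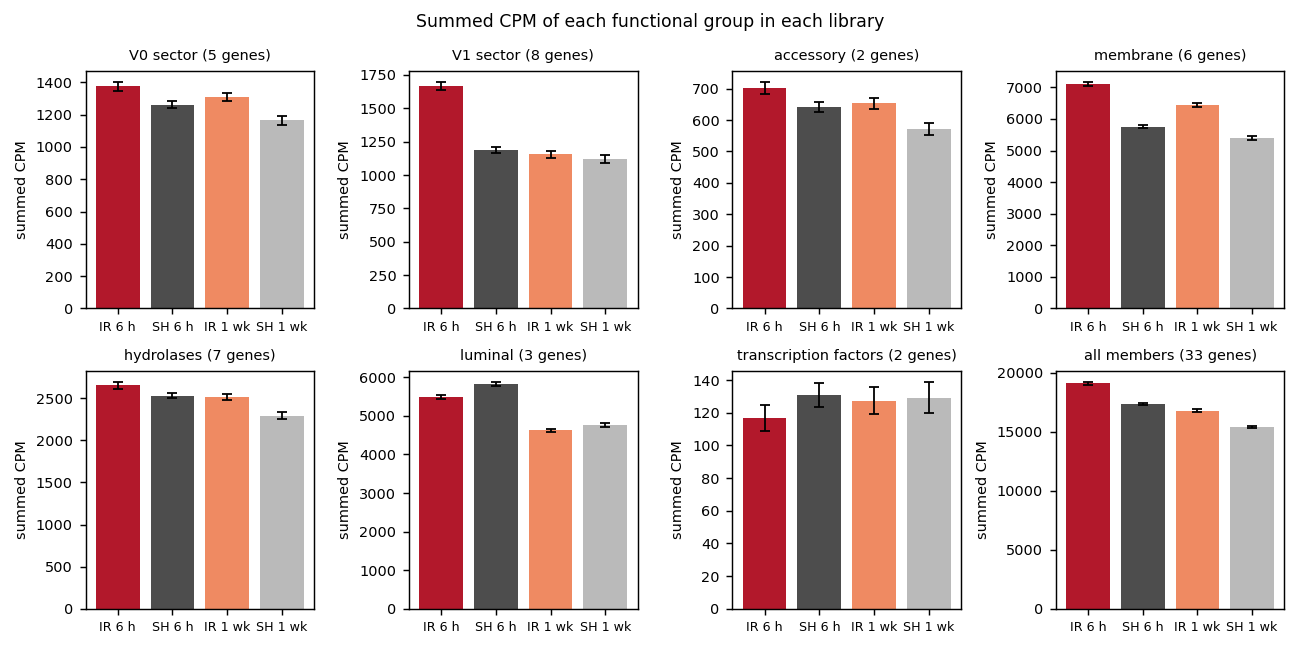
Summed CPM of each functional group (panels, with the number of genes) in the libraries IR 6 h, SH 6 h, IR 1 week and SH 1 week; bars are sums and error bars exact Poisson 95% intervals. The V1 panel has 1667 CPM in IR at 6 h, while the other libraries lie between 1119 and 1186 CPM.

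The membrane V0 sector differed less at 6 h. Its 5 genes summed to 1375 CPM in IR and 1262 CPM in SH at 6 h, a log2 fold of 0.12 (0.09 to 0.16), and to 1310 CPM in IR and 1166 CPM in SH at 1 week, a fold of 0.17 (0.12 to 0.21). The largest difference at 6 h was that of Atp6v0d1, which couples the rotor to the proteolipid ring, with 158 CPM in IR and 116 CPM in SH, a log2 fold of 0.44 (0.32 to 0.56). Atp6v0e, a small membrane subunit, and Atp6v0b, a ring proteolipid, were at 0.12 (0.03 to 0.20) and 0.09 (0.04 to 0.13). Atp6v0a1, the subunit that forms the proton path with the ring, was at -0.11 (-0.31 to 0.09). Of the accessory proteins that help assemble the pump, Atp6ap1 was near SH at 0.04 (-0.04 to 0.11). Atp6ap2 was higher, at 0.23 (0.15 to 0.30). At 1 week Atp6ap1 was at 0.12 (0.03 to 0.21) and Atp6ap2 at 0.27 (0.18 to 0.36).

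Atp6v0c, the main ring proteolipid, had few UMIs, namely 71 in IR and 81 in SH at 6 h, and 96 in IR and 101 in SH at 1 week. That corresponds to 9.68 CPM in IR and 8.34 CPM in SH at 6 h, and 12.5 CPM in IR and 18.1 CPM in SH at 1 week. The SH library at 1 week was the high one, at a log2 fold of 1.12 (0.68 to 1.56) over SH at 6 h. That is 1.5-fold or more between SH animals, which also differed in age at sampling. GENCODE lists 2 processed copies of this gene, and how the counting treated reads shared with them is not given in the sources used here, so its values are uncertain.

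**Figure D3:**
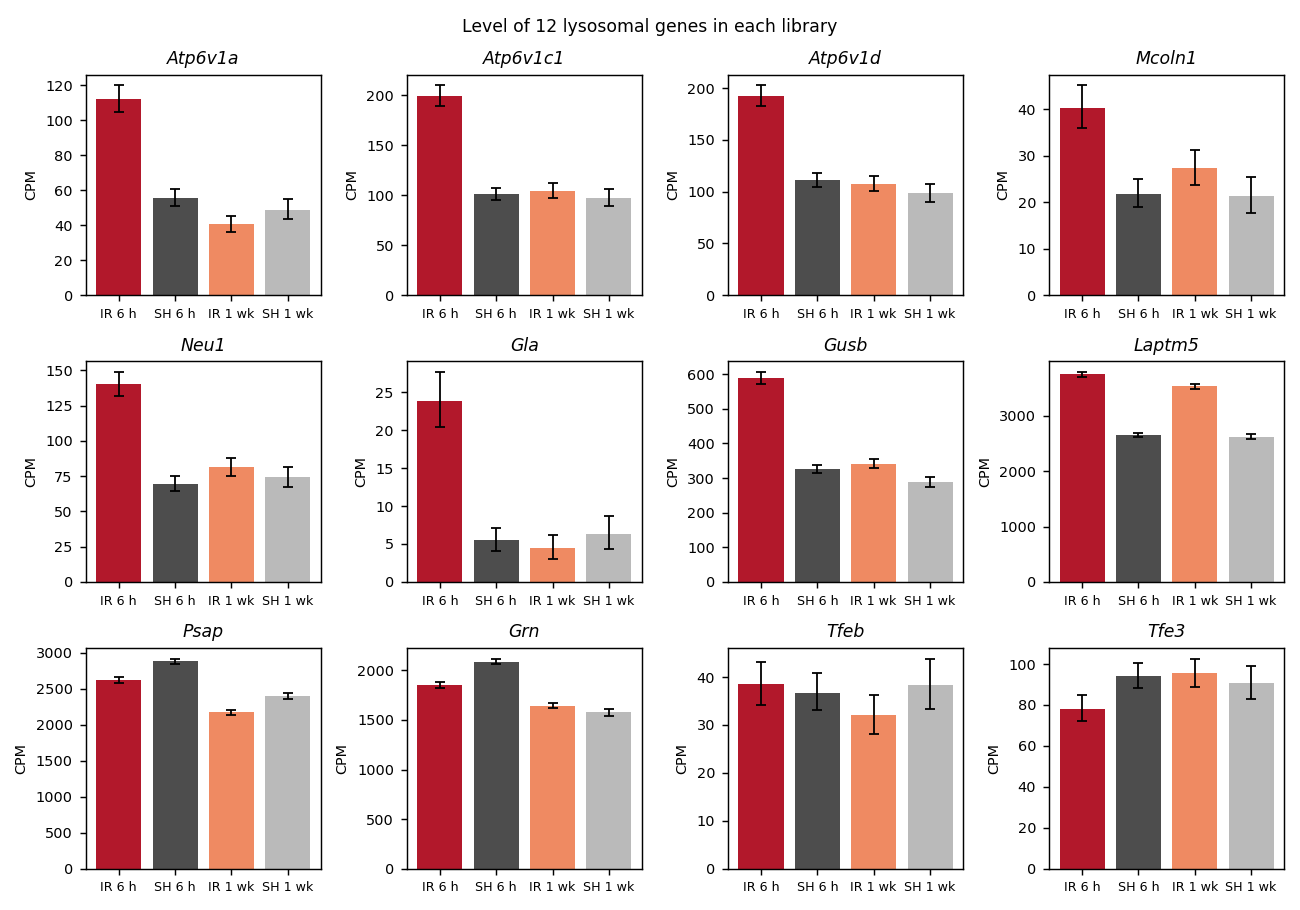
CPM of 12 genes in the 4 libraries, with exact Poisson 95% intervals as error bars. The first 7 panels are the genes past 1.5-fold at 6 h, in which the IR library at 6 h is the highest of the 4 (Gla 23.9 CPM, the other libraries 4.44 to 6.27 CPM); Laptm5 is high in both IR libraries, and Psap, Grn, Tfeb and Tfe3 are shown for comparison.

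Among the acid hydrolases, 3 of 7 were at least 1.5-fold higher at 6 h. Gla, the alpha-galactosidase deficient in Fabry disease (ENSMUSG00000031266, chromosome X, 134588149 to 134601125), had 175 UMIs in IR and 53 in SH at 6 h, and 34 in IR and 35 in SH at 1 week. It stood at 23.9 CPM in IR and 5.46 CPM in SH at 6 h, against 4.44 CPM in IR and 6.27 CPM in SH at 1 week. The log2 fold at 6 h, 2.13 (1.68 to 2.60), was the largest of the 33 genes and larger than that of 98.7% of all measured genes. At 1 week it was -0.50 (-1.22 to 0.23), where the few UMIs leave the direction unsettled.

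Neu1, the lysosomal sialidase (ENSMUSG00000007038, chromosome 17, 34931253 to 34935953), was at 140 CPM in IR and 69.6 CPM in SH at 6 h, and at 81.3 CPM in IR and 74.3 CPM in SH at 1 week. Its log2 fold was 1.01 (0.87 to 1.15) at 6 h and 0.13 (-0.05 to 0.31) at 1 week. Gusb, beta-glucuronidase (ENSMUSG00000025534, chromosome 5, 129989011 to 130003049), had 589 CPM in IR and 326 CPM in SH at 6 h, and 341 CPM in IR and 287 CPM in SH at 1 week. The folds were 0.85 (0.79 to 0.92) at 6 h and 0.25 (0.16 to 0.34) at 1 week. No TCACGTGA was present in the matched windows of these genes.

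The other hydrolases were within 1.5-fold of SH in either direction at 6 h. Gaa, the acid glucosidase that degrades glycogen, was at 0.39 (0.23 to 0.55), and Lipa, the acid lipase for cholesteryl esters, at 0.33 (0.20 to 0.45). Hexa, the alpha subunit of beta-hexosaminidase, was lower, with 983 CPM in IR and 1181 CPM in SH, a log2 fold of -0.26 (-0.31 to -0.22). Man2b1, the lysosomal alpha-mannosidase, was at -0.17 (-0.22 to -0.12) at 6 h and at 0.32 (0.26 to 0.38) at 1 week. Its SH libraries differed by -0.28 (-0.34 to -0.22) for 1 week over 6 h, and against the SH library of the other time the folds were 0.11 for IR at 6 h, in the other direction, and 0.03 for IR at 1 week. Summed over the 7 hydrolases the level was 2652 CPM in IR and 2532 CPM in SH at 6 h, because Hexa and Man2b1 hold most of these UMIs.

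Of the lysosomal membrane proteins, Mcoln1 had the largest fold at 6 h. It encodes TRPML1, the channel that releases calcium from the lysosome (ENSMUSG00000004567, chromosome 8, 3500457 to 3515232). Its level was 40.4 CPM in IR and 21.8 CPM in SH at 6 h, a log2 fold of 0.89 (0.63 to 1.15), and 27.3 CPM in IR and 21.3 CPM in SH at 1 week, a fold of 0.36 (0.02 to 0.69). Both IR libraries were above both SH libraries for this gene.

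Laptm5, a lysosomal membrane protein of blood-derived and other immune cells, was also higher in both IR libraries. It had 3752 CPM in IR and 2653 CPM in SH at 6 h, and 3536 CPM in IR and 2624 CPM in SH at 1 week. The log2 folds were 0.50 (0.48 to 0.52) and 0.43 (0.40 to 0.46), which is 1.41-fold and 1.35-fold, while SH at 1 week over SH at 6 h was -0.02 (-0.04 to 0.01). Cd68, the glycoprotein used as a marker of phagocytic macrophages, had 1227 CPM in IR and 1093 CPM in SH at 6 h, and 1271 CPM in IR and 1100 CPM in SH at 1 week. Its folds were small, 0.17 (0.13 to 0.21) and 0.21 (0.16 to 0.25).

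The abundant glycoproteins of the lysosomal coat differed little. Lamp1 was at 0.13 (0.09 to 0.16) at 6 h and -0.08 (-0.12 to -0.03) at 1 week. Lamp2, one isoform of which serves chaperone-mediated autophagy, was at -0.10 (-0.16 to -0.03) and 0.07 (-0.0070 to 0.15). Between the SH libraries the difference of Lamp2 was larger than either, at -0.40 (-0.47 to -0.32) for 1 week over 6 h, and against the SH library of the other time its folds turned to 0.30 for IR at 6 h and -0.33 for IR at 1 week. Npc1, the cholesterol exporter of the lysosomal membrane, was at 0.14 (-0.03 to 0.32) and -0.16 (-0.37 to 0.04).

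Of the luminal proteins other than hydrolases, Psap and Grn were lower in IR than in SH at 6 h and Npc2 higher, all by less than 1.5-fold; against the SH library at 1 week, Psap at 0.13 and Grn at 0.23 lay in the other direction. Psap, the precursor of the saposins that present lipids to hydrolases, had 2619 CPM in IR and 2880 CPM in SH at 6 h, and 2170 CPM in IR and 2396 CPM in SH at 1 week. Its log2 folds were -0.14 (-0.16 to -0.11) at 6 h and -0.14 (-0.18 to -0.11) at 1 week. Grn, which encodes progranulin, had 1855 CPM in IR and 2088 CPM in SH at 6 h, a fold of -0.17 (-0.20 to -0.14), and 1645 CPM in IR and 1577 CPM in SH at 1 week, a fold of 0.06 (0.02 to 0.10). Npc2, the soluble cholesterol carrier, was at 0.25 (0.20 to 0.29) and 0.04 (-0.01 to 0.10). For Psap and Grn the SH libraries differed by more than IR from SH, at -0.27 (-0.30 to -0.24) and -0.40 (-0.44 to -0.37) for SH at 1 week over SH at 6 h.

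The mRNAs of the transcription factors did not show the pattern of Gla or Atp6v1a. Tfeb was at 38.5 CPM in IR and 36.8 CPM in SH at 6 h, and at 31.98 CPM in IR and 38.3 CPM in SH at 1 week. The log2 folds were 0.07 (-0.17 to 0.29) and -0.26 (-0.53 to 0.01), intervals that hold 0. Tfe3 had 78.3 CPM in IR and 94.1 CPM in SH at 6 h, a log2 fold of -0.27 (-0.42 to -0.11), and 95.4 CPM in IR and 90.6 CPM in SH at 1 week, a fold of 0.07 (-0.09 to 0.24).

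At 1 week 0 of the 33 genes were 1.5-fold higher or lower in IR than in SH, beside 3.91% higher and 3.09% lower of 9502 measured genes. The median log2 fold was 0.10 (0.03 to 0.15), beside 0.04 over all genes. Past a log2 fold of 0.32, Laptm5 and Mcoln1 were higher and Atp6v0c and Gla lower, beside 12.4% and 10.4% of the table. The functional groups lay between a log2 fold of -0.04 for the luminal and 0.25 for the membrane proteins by their sums. In the membrane group Laptm5 alone gave 3536 of 6433 CPM in IR.

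**Figure D4:**
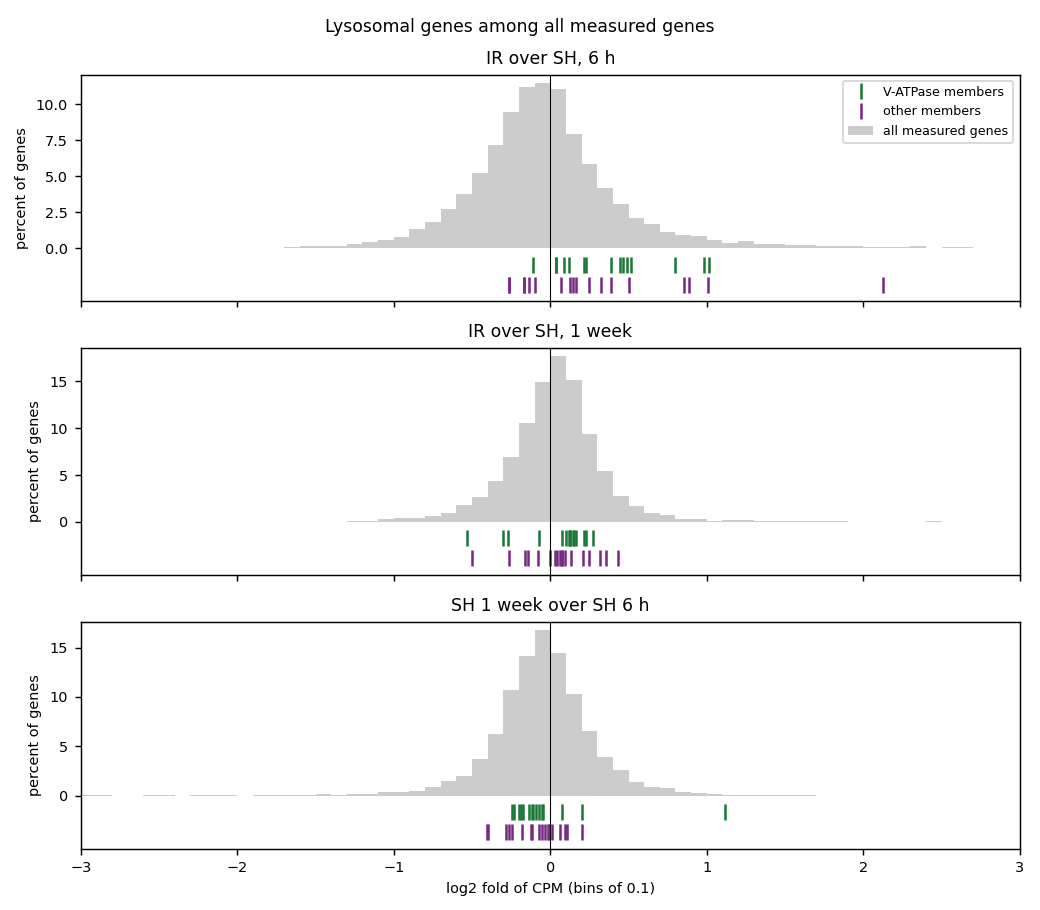
Distribution of the log2 folds of all measured genes (grey bars, percent of genes in bins of 0.1) in the 3 comparisons, with the V-ATPase members and the other members as ticks beneath. At 6 h the members extend to the right, with a median of 0.23 beside -0.06 for all genes; at 1 week and between the SH libraries most ticks lie within the central bars.

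Between the SH libraries, Atp6v0c was the member past 1.5-fold (1 of 33 higher, 0 lower, beside 2.94% and 4.92% of 9723 genes). The median for SH at 1 week over SH at 6 h was -0.09 (-0.17 to -0.03), beside -0.05 over all genes, and 25 of the 33 genes (75.8%) were below 0, beside 58.1% of all measured genes. The comparison at 6 h and that at 1 week each share a library with this one. Set against both SH libraries at once, 25 of the 33 genes were above both in IR at 6 h and 3 below both, where 33.3% of all measured genes were above and 44.1% below. In IR at 1 week 15 were above both and 9 below both, where the whole table gave 34.1% and 30.5%.

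Over both times 18 genes were above their own SH library, 2 were below it, 8 were above it at 6 h and below it at 1 week, and 5 the reverse, folds near 0 included. Of 9432 genes measured at both times, 24.2% were above at both, 26.5% below at both, 17.7% above at 6 h and below at 1 week, and 31.6% the reverse. The 2 genes lower at both times were Hexa, at -0.0040 level with SH at 1 week, and Psap.

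Cell by cell, the higher V1 level at 6 h was spread over the cells. The share of a cell's UMIs on the 8 V1 genes had a median of 0.148% in IR (quartiles 0.098 and 0.213%) and 0.110% in SH (0.071 and 0.154%) at 6 h. At 1 week the medians were 0.107% in IR (0.070 and 0.153%) and 0.104% in SH (0.067 and 0.144%). The 95th percentile was 0.335% in IR and 0.231% in SH at 6 h, so the upper tail was higher as well. With every cell thinned to 2000 UMIs, which left out 90 IR and 93 SH cells at 6 h, the mean share was 0.165% in IR and 0.116% in SH, beside 0.163% and 0.116% before thinning. Cells of 1 library are not replicates, and these spreads are a description.

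The luminal group did not show that pattern. Psap, Grn and Npc2 together took a median of 0.516% of a cell's UMIs in IR and 0.548% in SH at 6 h, and 0.447% in IR and 0.445% in SH at 1 week. All 33 genes together took a median of 1.86% in IR and 1.68% in SH at 6 h, and 1.67% in IR and 1.51% in SH at 1 week.

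**Figure D5:**
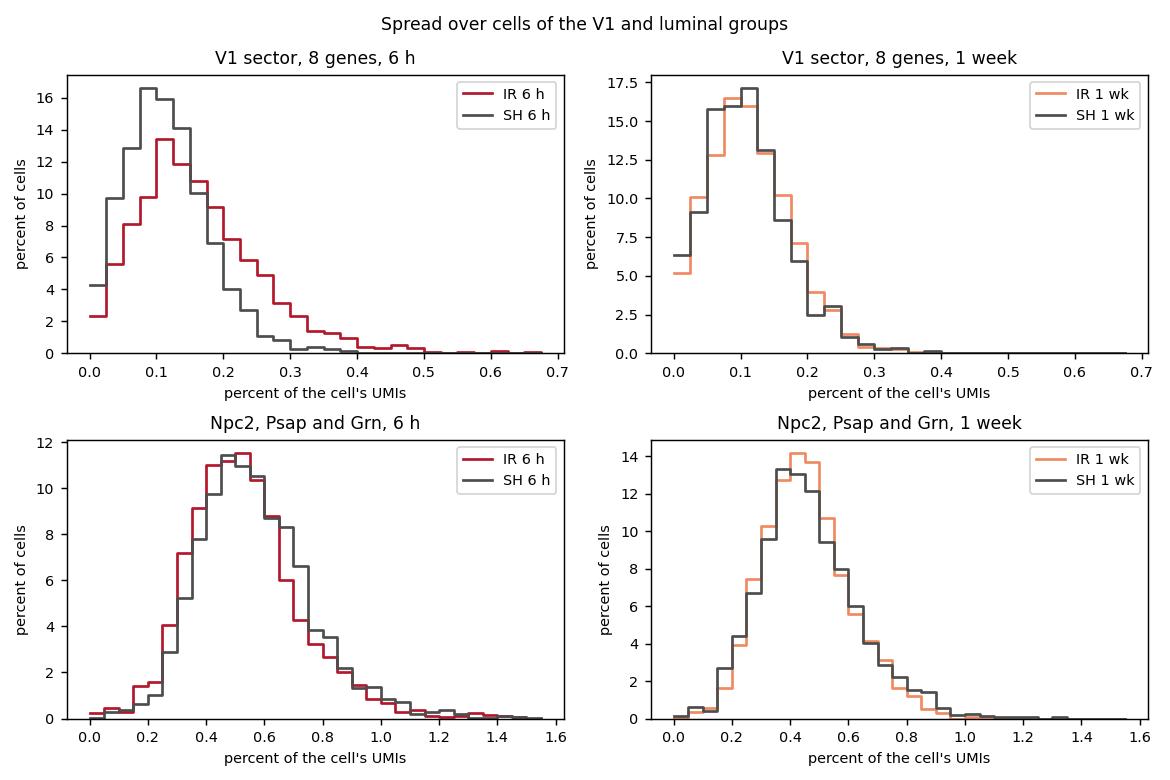
Distribution over cells of the percent of a cell's UMIs on the 8 V1 genes (top) and on Npc2, Psap and Grn (bottom), with IR and SH cells as lines at 6 h (left) and 1 week (right). The V1 curve of IR cells at 6 h lies to the right of that of SH cells (medians 0.148 and 0.110%), while the luminal medians are 0.516 and 0.548% at 6 h and the curves at 1 week nearly coincide.

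Of 105 other lysosomal genes, 91 were measured at 6 h, and 13 of them were at least 1.5-fold higher in IR and 3 lower (14.3% and 3.30%, beside 9.01% and 9.31% of all genes). A list of regulators, made of mTORC1, Rag, Ragulator and folliculin complex genes and of some transcription factors, had 6 of 18 measured genes higher and 0 lower, and the median log2 fold of that list was 0.11 (-0.10 to 0.74). Other hydrolases had 2 of 32 higher and 0 lower with a median of -0.06, and of the other V-ATPase subunits and assembly factors 0 of 10 passed in either direction. At 1 week 0 of 89 were 1.5-fold higher and 1 lower, the sulfamidase gene Sgsh at -0.87 (-1.65 to -0.11) from 27 UMIs in IR and 36 in SH.

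Of the 5 largest folds above SH at 6 h the first was that of Rragd, which encodes RagD, a GTPase that brings mTORC1 and TFEB to the lysosome. It had 62 UMIs in IR and 11 in SH at 6 h, a log2 fold of 2.90 (1.96 to 3.97), and 7 in IR and 4 in SH at 1 week. Rragc, which encodes the related GTPase RagC, had 166 CPM in IR and 66.3 CPM in SH at 6 h, a fold of 1.32 (1.19 to 1.46). At 1 week Rragc had 61.6 CPM in IR and 74.3 CPM in SH. Fnip2, a partner of folliculin in the complex that acts on RagC and RagD, had 28.5 CPM in IR and 9.68 CPM in SH at 6 h, a fold of 1.56 (1.20 to 1.93). Slc15a3, a peptide and histidine transporter of the lysosomal membrane, was at 1.06 (0.99 to 1.13), and between the SH libraries at 0.59 (0.50 to 0.67). Gga2, an adaptor that sorts hydrolase receptors to endosomes, was at 0.97 (0.67 to 1.27).

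The 3 lower genes were Tpcn1, an endolysosomal cation channel gene, Sort1, a sorting receptor gene, and Abca2, a transporter gene. Tpcn1 had 31.0 CPM in IR and 60.1 CPM in SH at 6 h, a log2 fold of -0.96 (-1.19 to -0.73). Sort1 was at -0.73 (-0.95 to -0.51), and Abca2, from 19 UMIs in IR and 43 in SH, at -0.77 (-1.63 to 0.04).

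The members with TCACGTGA in their promoter window had log2 folds at 6 h of 2.13 for Gla, 1.01 for Atp6v1a, 0.89 for Mcoln1, 0.44 for Atp6v0d1 and 0.12 for Atp6v0e, with a median of 0.89. The 3 members with CACGTG alone were at 0.39 for Gaa, 0.13 for Lamp1 and 0.09 for Atp6v0b, which gives a median of 0.42 over all 8 with CACGTG. The 20 matched members without CACGTG had a median of 0.12 and a range of -0.27 to 1.01. At 1 week the medians were 0.15 with TCACGTGA, 0.09 with CACGTG and 0.09 without. Of the 7 genes past 1.5-fold at 6 h, 3 held the motif, 3 did not (Neu1, Gusb and Atp6v1d), and the window of Atp6v1c1 was not matched. By gene, TCACGTGA was in 17.9% of the matched members and in 1.12% of all genes with a window. Whether the motif has a part in the folds was not tested.

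The 7 genes past 1.5-fold at 6 h overlap no other annotated gene. In GENCODE 8 members overlap a gene on the opposite strand, namely Atp6v0b, Atp6v1b2, Atp6v1e1, Atp6v1h, Lamp1, Npc1, Hexa and Grn, and whether the counting used strand is not stated. Only Npc1 has an overlapping partner of comparable level, Rmc1, with 131 UMIs in IR and 173 in SH at 6 h, beside 487 in IR and 584 in SH for Npc1 itself. The overlapping partners of the others had at most 54 UMIs in any library.

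Among cells that carried a UMI of at least 4 of the 9 microglia markers and of at most 2 markers of other cell types, which were 88.2% of IR and 87.6% of SH cells at 6 h, the same 7 genes were at least 1.5-fold higher. The count was thus as large in cells that passed this marker limit. Immediate early genes, 12 markers of handling and stimulation, summed to 5983 CPM in IR and 7324 CPM in SH at 6 h, and to 9090 CPM in IR and 10555 CPM in SH at 1 week; their part in the results was not tested.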

How the data were processed

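The deposited values are raw UMI counts for each gene in each barcode, made by the authors with Cell Ranger 2.0 on mm10, per the submitters' processing notes; the annotation release, strand setting and barcode threshold used are not stated there or in the labels. Barcodes were kept from 1000 UMIs and 500 genes with at most 10% mitochondrial UMIs (117 removed). Scrublet in scanpy 1.11.5 at an expected rate of 0.06 marked 45 doublets (0.538%), far below that rate, so doublets can remain. This left 8324 cells; the design text states 8095.

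UMIs were summed per library over all kept cells and scaled to the library total (CPM). Folds carry the exact conditional binomial 95% interval, CPM sums the exact Poisson interval, and list medians the order-statistic interval over members. Intervals of folds and CPM sums cover counting error only and are too narrow for the spread between mice. Those of list medians come from the spread of folds over the listed genes and do not cover the spread between mice either. With 1 library per group nothing was tested; a gene was called from a 1.5-fold CPM ratio. Coordinates came from GENCODE vM21 (27645 of 27998 IDs matched).

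Members and lists were chosen with earlier results of these data known. All members are named, and of the other lysosomal genes at most the 5 largest past 1.5-fold per direction and comparison. The genes named under Other observations are exceptions, chosen after their values were seen. Alternatives covered cell filters, doublets, a microglia marker gate, thinning, cell weights, scaling (TMM by edgeR 4.0.16 among them), count minimums, the fold called and the SH library.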

Additional observations from a re-analysis of the deposited data

Results flagged for a closer look

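Gla lay on opposite sides of SH at the 2 times, each by a log2 fold over 0.32. Its log2 fold of IR over SH was 2.13 at 6 h and -0.50 (-1.22 to 0.23) at 1 week, a difference of 2.63. With 1 library per group the difference was not tested, and the value at 1 week rests on 34 UMIs in IR and 35 in SH.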

How the results depend on the processing

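At 6 h the same 7 genes were at least 1.5-fold higher under every cell filter, doublet, gate, thinning, weighting, scaling and count-minimum alternative that was run. Against the SH library at 1 week, Atp6v1b2 joined them and 1 gene, Atp6v0c at -0.90, was lower; with a log2 fold of 0.32 as the limit 15 were higher. At 1 week the count of 0 higher became 1 after thinning (Mcoln1) and 1 against the SH library at 6 h (Atp6v0c), and 2 higher and 2 lower at the limit of 0.32. The median at 1 week was -0.0021 against the SH library at 6 h, in place of 0.10, with 16 genes above and 17 below 0. Between the SH libraries the 1 higher gene, Atp6v0c, was not measured from 200 UMIs (count 0), and 2 were lower at the limit of 0.32. Of 1346 recomputed folds of single members, 1281 stayed within their counting interval and 65 moved out of it. With the other SH library alone, 35 moved out and 31 stayed. Of the few folds called with the main settings, 7 at 6 h and that of Atp6v0c between the SH libraries, 0 changed sign. Uncalled folds did change sign. Against the SH library of the other time these were 5 at 6 h (Atp6v0c, Grn, Lamp2, Man2b1 and Psap) and 9 at 1 week (Atp6ap1, Atp6v0c, Atp6v0e, Atp6v1b2, Atp6v1d, Grn, Lamp2, Lipa and Npc2). Under at least 1 of the other settings they were Atp6v1f and Tfeb at 6 h, Atp6v1e1, Gaa and Hexa at 1 week, and Atp6v0d1, Atp6v1c1, Gaa, Laptm5, Mcoln1 and Tfeb between the SH libraries. The high depth of the libraries makes counting intervals narrow; the spread between animals is unknown. Keeping called doublets moved no fold out of its interval, nor did leaving out the deepest 5% of cells, an alternative chosen after seeing the data. No paired analysis was possible because each group has 1 library.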

Other observations

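Beside Rragd, Fnip2 and Rragc, the other 3 regulators past 1.5-fold at 6 h, named after their values were seen, were Flcn (folliculin) at a log2 fold of 0.88 (0.74 to 1.02), Lamtor3, a subunit of the Ragulator scaffold, at 0.74 (0.59 to 0.90), and Fnip1, a further partner of folliculin, at 0.64 (0.45 to 0.84). At 1 week these were at -0.0086 for Flcn, 0.25 for Lamtor3 and 0.34 for Fnip1. They come from a list in which 6 of 18 measured genes passed at 6 h, 13 lay above 0 and 5 below. The other Ragulator genes stayed within 1.5-fold of SH at 6 h, with Lamtor1 and Lamtor5 at 0.06, Lamtor4 at -0.10 and Lamtor2 at -0.18. Rraga was at 0.13, Mtor at -0.25, Mitf at -0.30 and Rptor at -0.50. Outside this list, Fuca1 and Clcn7 each had a fold of 0.89.

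Over all measured genes with a RefSeq promoter window, those with TCACGTGA had a median log2 fold of 0.02 at 6 h (193 genes), with 12.95% at least 1.5-fold higher and 1.55% lower, while those without it had -0.07 (7450 genes), with 8.30% higher and 9.36% lower. At 1 week the shares were 3.74% and 0.535% with the motif, and 3.88% and 2.8% without it. Between the SH libraries they were 1.07% and 1.604% with it, and 2.56% and 4.82% without it. The motif is shared by promoters of many kinds, and no test was made of these shares.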
